A study of Mus musculus with 26 samples.

Results

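The 45 genes described here encode 25 translation factors and 20 cytosolic aminoacyl-tRNA synthetases. They were chosen by gene symbol from a list of such genes, and all 45 were found in both deposited tables, out of 19404 genes listed for the deletion of Brg1 and 19719 for its knockdown. Brg1, encoded by Smarca4, is an ATPase that powers SWI/SNF complexes, which move nucleosomes. Polyadenylated RNA was sequenced from mouse pro-B cells, the B cell precursors that rearrange the immunoglobulin heavy chain locus. B220+ bone marrow cells of C57/Bl6 mice were cultured for 7 days with the growth factors IL7 and SCF. The Brg1-deleted group was Brg1F/F x ER-Cre (2 libraries) and its control was Brg1+/+ x ER-Cre (2 libraries). Both carried the tamoxifen-activated Cre and both received 0.3 µM tamoxifen during the last 60 h, so the agent itself is shared. The promoter that drives the Cre is not given in the labels. The knockdown groups were Rag1-/- cells, which cannot rearrange antigen receptor genes, infected by spinning with virus on days 3 and 4 and enriched with beads for the hCD25 marker 2 days after infection. They carried a Brg1 shRNA (3 libraries) or a control shRNA (3 libraries). The labels do not say whether libraries of 1 group came from separate mice, so p-values measure only the spread between these libraries. Of the 26 samples in the series these are the 10 RNA libraries, and the other 16 were not analysed here.

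Translation initiation begins when eIF4E binds the cap of an mRNA and, with the scaffold eIF4G and the helicase eIF4A, recruits the small ribosomal subunit with eIF3 and with the initiator tRNA carried by eIF2. The 4E-BPs hold eIF4E back when mTORC1 is inactive, and eIF2 must be recharged with GTP by eIF2B between rounds. Elongation factors then deliver charged tRNAs and move the ribosome, and each synthetase charges the tRNAs of its amino acid. In many vertebrate cell types, genes of both kinds are known targets of the growth regulator Myc, and many synthetase genes are targets of Atf4, the transcription factor of the amino acid response.

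Smarca4 itself had a mean of 6067 normalized reads in Brg1-deleted cells and 17898 in control cells, and 6743 with the Brg1 shRNA and 13340 with the control shRNA. The authors' deposited tables give it log2 fold changes of -1.56 (DESeq adjusted p = 0.0008) and -0.98 (adjusted p = 0.0472). Normalized reads are reads divided by a library size factor, averaged over a group by the authors. For deletion the means could be resolved into whole reads of each library, which totalled 11578641 and 8790619 in the Brg1-deleted libraries and 10763948 and 10216954 in the control libraries. In each group the libraries are named by depth, and wherever 2 library values of a group follow, the deeper library comes first. For knockdown only depths could be had, about 8304080 to 11051800 reads with the Brg1 shRNA and 5201290 to 10509700 with the control shRNA. All 10 B lineage markers examined were detected, with summed means of 76767 in Brg1-deleted and 51914 in control cells and of 47164 and 40868 with the Brg1 and control shRNA. The 12 myeloid markers examined summed to 3987 in Brg1-deleted and 7439 in control cells, and to 488 and 492 with the Brg1 and control shRNA. T and NK cell markers summed to at most 45.6 and erythroid markers to at most 9.49 in any group. The cultures of the deletion experiment differed within groups in these myeloid transcripts and in B lineage transcripts. Il7r and Dntt were the 2 B lineage markers resolved into libraries. They summed to 732 and 3034 normalized reads in the deeper and shallower Brg1-deleted libraries and to 3361 and 2026 in the controls. S100a8 and S100a9, made by neutrophils, summed to 1.73 and 267 normalized reads in the deeper and shallower Brg1-deleted libraries and to 390 and 15.0 in the deeper and shallower controls. The macrophage genes C1qa, C1qb and C1qc summed to 240 and 17.4 in those Brg1-deleted libraries and to 20.5 and 368 in those controls. The shallower Brg1-deleted and the deeper control library are therefore called S100a8-rich below, and the deeper Brg1-deleted and the shallower control library C1q-rich.

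After deletion, 43 of the 45 genes had a lower mean in Brg1-deleted than in control cells. The median log2 fold change over all 45 was -0.78. The median was -0.66 for the 25 factors, of which 24 were lower, and -0.84 for the 20 synthetases, of which 19 were lower. The median of the resolved synthetases was -0.37 without the deeper control library. The median of all 19404 genes was -0.001, and that of the 9208 genes with a mean of at least 100, a level that all 45 reach, was -0.015. Of those 9208 genes, 17.7% had a log2 fold change below -0.5, as did 31 of the 45. In bulk RNA, fewer cells of a type and less RNA per cell cannot be told apart. In the authors' deposited table, Eif5a alone of the 45 passed an adjusted p of 0.05 and was lower, so 1 of 45 was called lower and 0 higher, beside 0.742% of all genes called lower, 0.732% called higher and 1.47% called in all. At an unadjusted p under 0.05 the authors' deposited table held 19 of the 45 lower, 13 factors and 6 synthetases, where 5.29% of all genes and 9.02% of those with a mean of at least 100 were lower.

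Short stretches of promoter are shown for 6 of the members that hold at least 1 of 2 textbook elements searched for. These were CACGTG, the E-box bound by Myc and other basic helix-loop-helix factors, and TGATGNAA, the element bound by Atf4 with its partners. The 6 were picked by name, with deletion log2 fold changes from -1.32 (Eif5a) to -0.81 (Aars). Other members that hold an element, from Farsb (-1.16) to Eef2 (0.05), are not shown. The sequences are from RefSeq (GRCm38.p6) upstream of an annotated start, written 5′ to 3′ in the direction of the gene, with the element in capitals. TTGCATCA and TTTCATCA are the Atf4 element read on the other strand. The windows are chr8:111033672-111033761 (plus strand) for Aars, chr6:55037947-55038000 (plus) for Gars, chr15:11399659-11399697 (minus) for Tars, chr13:49682037-49682090 (plus) for Iars, chr11:69921431-69921484 (minus) for Eif5a and chr3:138527180-138527233 (plus) for Eif4e.
Aars: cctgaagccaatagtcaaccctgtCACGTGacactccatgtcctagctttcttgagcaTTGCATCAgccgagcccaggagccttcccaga
Gars: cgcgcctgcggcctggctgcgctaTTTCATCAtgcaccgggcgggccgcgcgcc
Tars: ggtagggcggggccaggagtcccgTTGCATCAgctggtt
Iars: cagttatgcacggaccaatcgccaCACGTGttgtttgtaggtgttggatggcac
Eif5a: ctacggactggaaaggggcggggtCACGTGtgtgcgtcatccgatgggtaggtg
Eif4e: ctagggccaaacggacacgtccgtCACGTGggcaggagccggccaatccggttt

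Promoters from 250 bases before to 50 after a start were found for 30 of the 45 genes, 18 factors and 12 synthetases, by symbol. Both strands were searched. CACGTG was present at 1 or more starts of 11 of the 30, which were Eif4e, Eif4a1, Eif4g1, Eif4h, Eif3a, Eif5a, Eef2, Aars, Iars, Tars and Farsb. That is 36.7%, where 8.09% of all 27025 genes with a promoter and 12.6% of the 6883 with a deletion mean of at least 100 had it. TGATGNAA was present in 5 of the 12 synthetases, Aars, Gars, Iars, Tars and Yars, and in 0 of the 18 factors, beside 4.51% of all genes and 2.51% of those with a mean of at least 100. A match of letters is a description and not a measured binding site. Of the genes with CACGTG, Eif5a had a log2 fold change of -1.32 after deletion and Eef2 one of 0.05. Whether the element goes with a change was not tested.

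**Figure D1:**
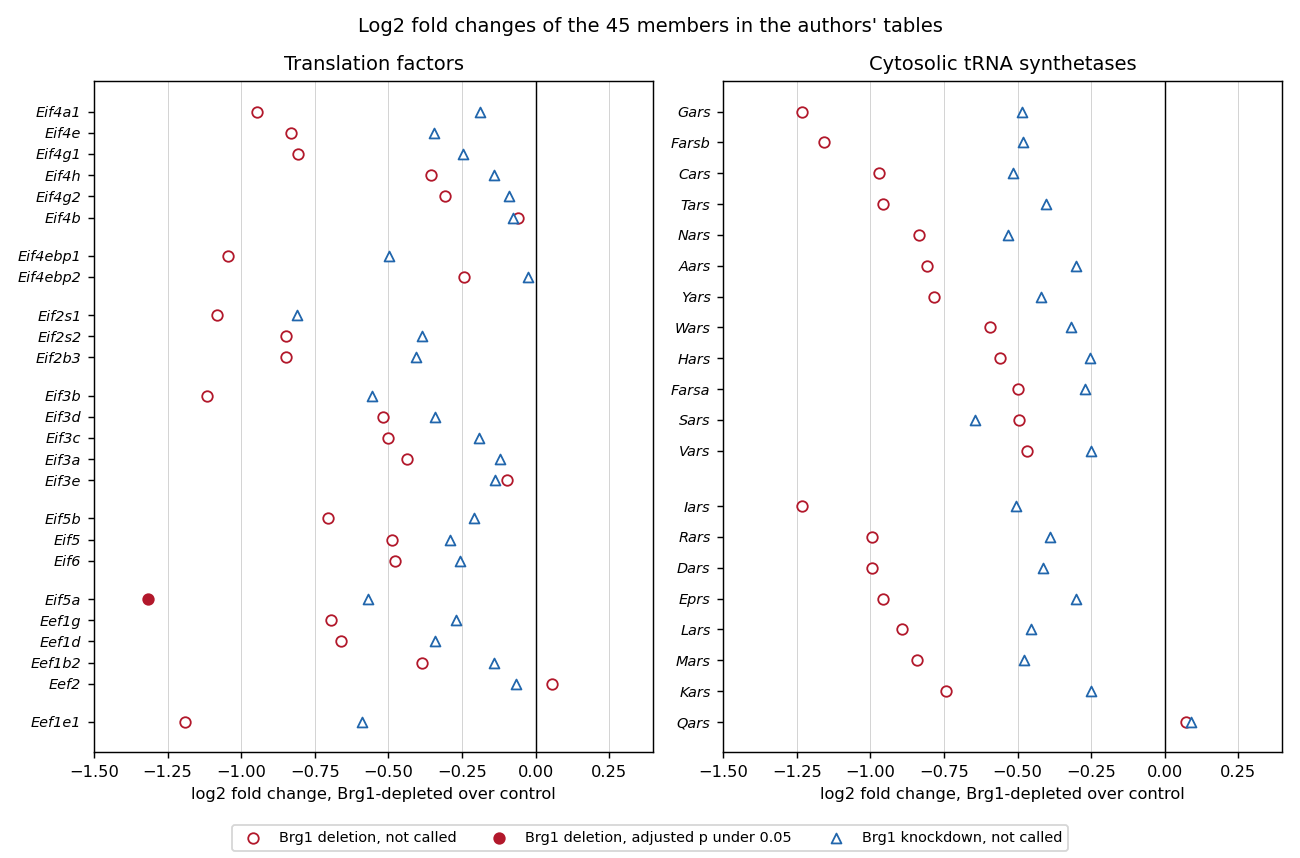
Log2 fold change (horizontal axis, Brg1-depleted over control) of the 25 translation factors and 20 synthetases, one gene per line and grouped by role, after deletion (circles) and knockdown (triangles) in the authors' tables. Eif5a after deletion is the single filled symbol, called at an adjusted p under 0.05, and Qars lies right of 0 in both experiments.

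The cap-binding and scanning group was lower throughout, though unevenly. All 6 genes had lower means after deletion (median log2 fold change -0.58), and 3 of them had an unadjusted p under 0.05. Eif4a1, the helicase, had the lowest fold change of the group. Its mean was 4086 in Brg1-deleted and 7880 in control cells, a log2 fold change of -0.95 in the authors' deposited table (adjusted p = 0.147). Eif4e, the cap-binding subunit, held 670 and 964 normalized reads in the deeper and shallower Brg1-deleted libraries and 1689 and 1218 in the deeper and shallower controls. The groups did not overlap, and the authors' deposited table gives -0.83 (adjusted p = 0.341). Eif4g1, the scaffold, had means of 4724 in Brg1-deleted and 8265 in control cells. Its relative Eif4g2, which lacks the eIF4E-binding part, had 9864 in Brg1-deleted and 12199 in control cells. Eif4b, a cofactor of the helicase, had nearly equal means, 5690 in Brg1-deleted and 5927 in control cells, and was highest in the group with -0.06. Eif4h, another cofactor, had -0.36.

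The eIF4E-binding proteins, which compete with eIF4G, had lower means as well. Eif4ebp1 held 307 and 297 normalized reads in the Brg1-deleted libraries and 672 and 571 in the controls. Both Brg1-deleted values lay below both controls, and the authors' deposited table gives a log2 fold change of -1.04 (adjusted p = 0.153). Eif4ebp2 had a smaller difference, with means of 1989 in Brg1-deleted and 2352 in control cells (-0.24).

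The eIF2 group was lower as a whole, and each of its 3 genes had an unadjusted p under 0.05. Eif2s1, the alpha subunit whose phosphorylation restrains initiation, held 813 and 778 normalized reads in the deeper and shallower Brg1-deleted libraries and 1748 and 1623 in the controls. The libraries of each group lay close together and far from the other group. The authors' deposited table gives it -1.08 with an adjusted p of 0.0939, the second lowest of the 45 after Eif5a. Eif2s2, the beta subunit, held 946 and 1147 in the Brg1-deleted libraries and 2291 and 1478 in the controls (-0.85). Eif2b3, a subunit of the exchange factor eIF2B, held 118 and 114 in the Brg1-deleted libraries and 234 and 182 in the controls (-0.85).

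Among the 5 eIF3 subunits the median log2 fold change was -0.50 and the range was wide. Eif3b, a core scaffold subunit, had means of 2213 in Brg1-deleted and 4801 in control cells, -1.12 in the authors' deposited table (adjusted p = 0.167). Eif3d, a subunit that can itself contact the cap, had 1679 in Brg1-deleted and 2404 in control cells (-0.52). Eif3e held 2995 and 2451 in the Brg1-deleted libraries and 2853 and 2971 in the controls, so the groups overlapped. The difference between subunits was not tested.

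The genes of start codon selection and subunit joining had a median of -0.49. Eif5b, the GTPase of subunit joining, held 1444 and 1690 in the Brg1-deleted libraries and 2673 and 2432 in the controls (-0.70). Eif6, which keeps the large subunit from joining early, held 638 and 792 in the Brg1-deleted libraries and 1071 and 921 in the controls (-0.48). Eif5, the GTPase activator of eIF2, had -0.49.

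The elongation group held both ends of the factors' range. Eif5a, which helps the ribosome past difficult stretches such as runs of proline and carries the modified residue hypusine, had means of 3811 normalized reads in Brg1-deleted and 9500 in control cells, 2.49-fold lower. The authors' deposited table gives it -1.32 (adjusted p = 0.0113), the lowest value of the 45. The gene lies at chr11:69916714-69921958 on the minus strand (mm10). Its reads could not be assigned to single libraries, since 2 splits were possible for the Brg1-deleted mean and 4 for the control mean, so no spread between libraries can be given. Eef2, the translocase, was the most abundant member per kb of exon and had nearly equal means, 41885 in Brg1-deleted and 40329 in control cells (0.05). Of the eEF1B exchange complex, which recharges eEF1A, Eef1g had -0.69, Eef1d -0.66 and Eef1b2 -0.39. Eef1d held 1063 and 1142 in the Brg1-deleted libraries and 1756 and 1729 in the controls.

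Eef1e1, counted with the factors by its symbol, is also known as AIMP3 and is a scaffold protein of the multisynthetase complex, in which several synthetases are held together. It held 110 and 115 normalized reads in the Brg1-deleted libraries and 279 and 234 in the controls. The libraries of each group again lay close together, with -1.19 in the authors' deposited table (adjusted p = 0.143). Of the 2 other scaffold genes, which are not among the 45, Aimp2 held 103 and 156 in the Brg1-deleted libraries and 355 and 292 in the controls and was called lower in the authors' deposited table, with -1.32 (adjusted p = 0.0466). Aimp1 held 613 and 524 in the Brg1-deleted libraries and 570 and 733 in the controls, with overlapping groups (-0.20).

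The 8 synthetases held in that complex had a median log2 fold change of -0.92 after deletion, and 5 of them had an unadjusted p under 0.05. The 12 free synthetases had a median of -0.80, and 1 had an unadjusted p under 0.05. Of the genes with a mean of at least 100, 9.02% were lower at that p. The difference between complex and free synthetases was not tested. The median log2 ratio of the deeper to the shallower control was 0.48 for 7 resolved synthetases of the complex. For 11 resolved free synthetases it was 0.76. In the complex, Rars (arginine) held 559 and 674 normalized reads in the Brg1-deleted libraries and 1392 and 1063 in the controls, and had the lowest unadjusted p of the synthetases, with -0.99 (adjusted p = 0.141). Dars (aspartate) held 555 and 567 in the Brg1-deleted libraries and 1243 and 990 in the controls (-0.99, adjusted p = 0.155). Both genes had groups that did not overlap. Iars (isoleucine) had the lowest fold change of the complex, -1.23, but unequal libraries, with 738 and 1450 in the Brg1-deleted libraries and 3659 and 1486 in the controls. Qars (glutamine) was the exception of the complex, with 1386 and 1652 in the Brg1-deleted libraries and 1667 and 1223 in the controls. Its mean was slightly higher in Brg1-deleted cells (0.07), and the groups overlapped.

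Of the free synthetases, Gars (glycine) had the lowest fold change, -1.23, with 868 and 1106 normalized reads in the Brg1-deleted libraries and 3036 and 1596 in the controls. Farsb, the beta subunit of the phenylalanine enzyme, held 422 and 447 in the Brg1-deleted libraries and 1193 and 745 in the controls, -1.16 in the authors' deposited table (adjusted p = 0.328). Its partner Farsa, the catalytic alpha subunit, held 619 and 707 in the Brg1-deleted libraries and 1041 and 833 in the controls (-0.50), so the subunits of 1 enzyme had fold changes of unequal size, a difference that was not tested. Aars (alanine), whose promoter stretch holds both elements, held 1190 and 1952 in the Brg1-deleted libraries and 3454 and 2047 in the controls (-0.81). Tars (threonine) held 589 and 807 in the Brg1-deleted libraries and 1704 and 1007 in the controls (-0.96). In both genes the groups did not overlap, by a small gap in Aars. Vars (valine) had the highest value of the group, -0.47, with means of 4635 in Brg1-deleted and 6406 in control cells. Sars (serine) held 924 and 1052 in the Brg1-deleted libraries and 1775 and 1011 in the controls, and the groups overlapped.

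Over the 28 members whose reads resolved into single libraries, 10 factors and 18 synthetases, both Brg1-deleted libraries lay below both controls in 21, 9 factors and 12 synthetases. The same held for 30.1% of the 8338 resolved genes whose mean reached 100, and for 23.6% of the 16956 whose mean reached 1. No member had both Brg1-deleted libraries above both controls. The 7 with overlapping groups were Eif3e, Qars, Sars, Yars, Nars, Mars and Cars. In the last 6 the shallower control library lay below at least 1 Brg1-deleted library, while the deeper control lay above both. Mars overlaps Ddit3, itself a gene of the amino acid response, on the opposite strand.

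The synthetases shared a pattern between libraries of 1 group. All 18 resolved synthetases were higher in the S100a8-rich than in the C1q-rich library, both among the Brg1-deleted and among the control libraries. This held in 6 of the 10 factors and in 46.1% of those 8338 genes. The median log2 ratio of the deeper to the shallower control was 0.72 for the synthetases, 0.23 for the factors and 0.07 for those 8338 genes. Between the Brg1-deleted libraries the same ratio was -0.34 for the synthetases, -0.09 for the factors and -0.09 for the 8338 genes. Cars (cysteine) had the largest such gap, 1.32 between the controls. Of the 11 resolved synthetases with a known promoter, the 5 with TGATGNAA had control gaps of 0.75 to 1.30 and the 6 without it 0.32 to 0.81, ranges that overlap. Atf4 held 1352 and 1919 normalized reads in the deeper and shallower Brg1-deleted libraries and 2571 and 1960 in the controls. Asns, an Atf4 target that makes asparagine, moved further, with 201 and 547 in the Brg1-deleted libraries and 1224 and 350 in the controls. Ddit3 held 182 and 254 in the Brg1-deleted libraries and 180 and 114 in the controls, with a higher mean in Brg1-deleted cells (0.57). The 11 resolved myeloid markers summed to 4557 and 2391 in the Brg1-deleted libraries and to 3418 and 7107 in the controls. The part of other cell types and of the amino acid response in these differences was not tested.

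**Figure D2:**
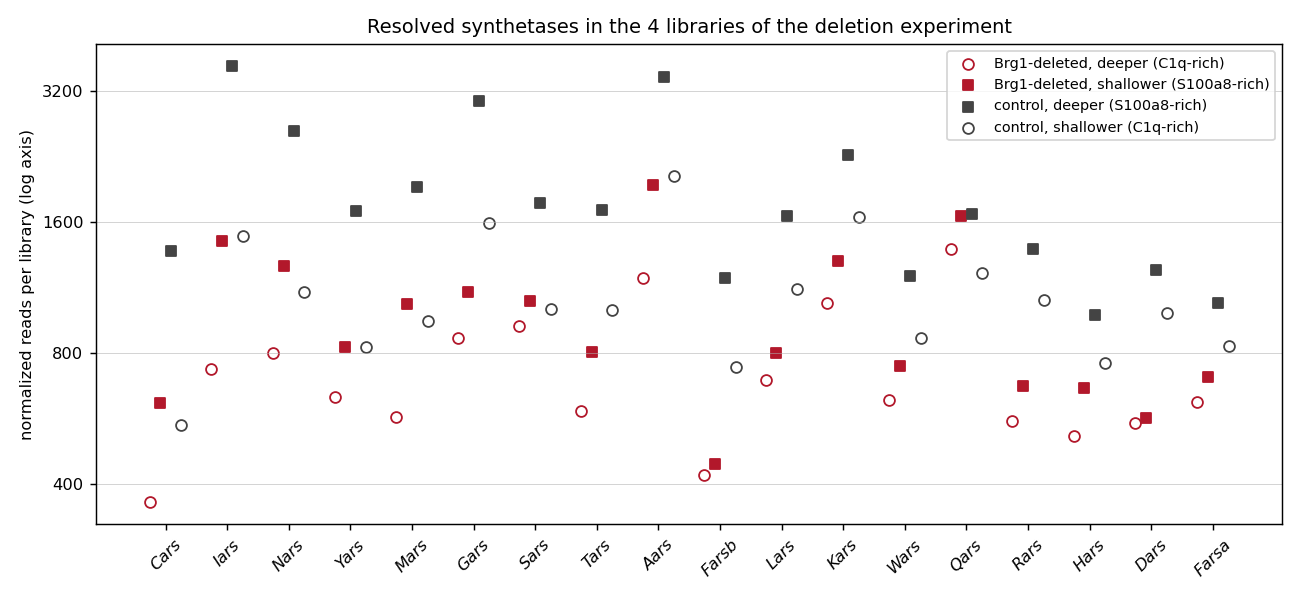
Normalized reads (vertical log axis) of the 18 resolved synthetases in each of the 4 libraries of the deletion experiment, ordered by the gap between the controls. The S100a8-rich library (square) lies above the C1q-rich library (circle) of the same group in all 18 genes, and the deeper control stands highest in each, with Qars the closest case (1652 in the S100a8-rich Brg1-deleted and 1667 in the S100a8-rich control library).

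Libraries were also compared within a kind, S100a8-rich or C1q-rich. Of the 18 resolved synthetases, 17 were lower in Brg1-deleted than in control cells in both kinds. The exception, Qars, had a log2 fold change of -0.01 between the S100a8-rich libraries and 0.18 between the C1q-rich ones. Libraries of 1 kind were not alike in all cell content. The 11 resolved myeloid markers summed to 2391 in the Brg1-deleted and 3418 in the control S100a8-rich library. In the C1q-rich libraries they summed to 4557 in the Brg1-deleted and 7107 in the control library. Mpo, the marker not resolved, had means of 513 in Brg1-deleted and 2177 in control cells. Elane held 59.3 in the Brg1-deleted and 278 in the control S100a8-rich library, and 5.18 and 169 in the C1q-rich libraries. The authors' deposited table calls Elane lower, with -2.79 (DESeq adjusted p = 0.015). All 12 myeloid markers had lower means after deletion. Between the S100a8-rich libraries, 1 per group, the median log2 fold change was -1.03 for the 18 synthetases and -0.90 for the 10 factors. Between the C1q-rich libraries it was -0.67 for the synthetases and -0.73 for the factors. The corresponding medians of the 8338 genes were -0.003 and -0.01. Of the 28 members, 26 were lower in both kinds, all but Qars and Eif3e, as were 41.6% of the 8338 genes. Mars, which overlapped in the pooled comparison, had -0.90 and -0.73, and Iars had -1.34 and -1.01. Sars had -0.75 between the S100a8-rich libraries and -0.13 between the C1q-rich ones. With 1 library per group, these pairs have no replicate check.

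**Figure D3:**
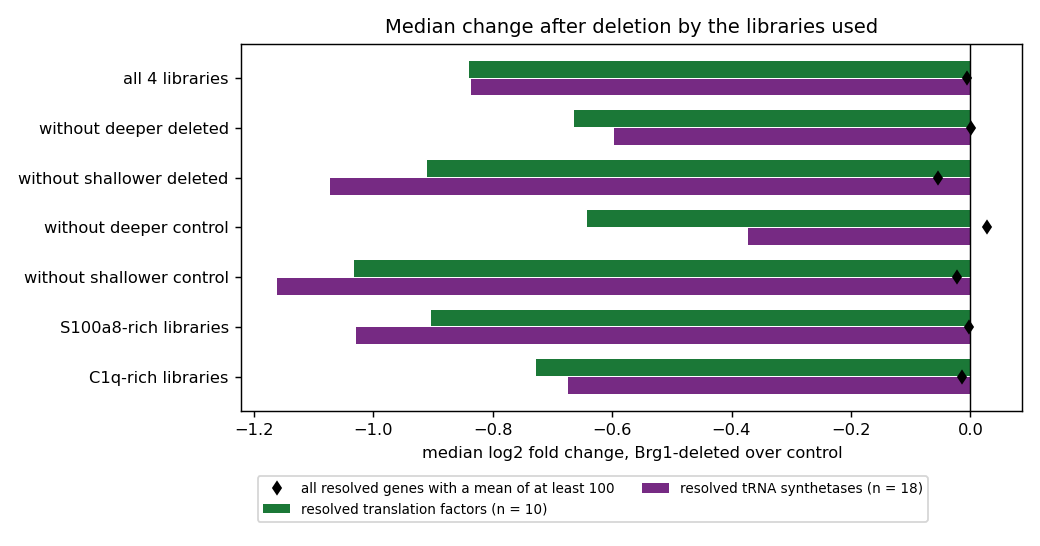
Median log2 fold change (horizontal axis, Brg1-deleted over control) of the 10 resolved factors and 18 resolved synthetases using all 4 libraries, leaving out each library, or within the S100a8-rich or C1q-rich libraries. Diamonds show the median of the 8338 resolved genes whose mean reached 100. The synthetase bar is shortest without the deeper control library, at -0.37.

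A fit across all 16956 resolved genes gave an error for each change. In limma on log2 values, without regard to the kind of library, 0 of the 28 members and 0 of all genes passed an adjusted p of 0.05. At an unadjusted p under 0.05 there were 17 members, all lower, 9 of them synthetases, beside 8.86% of all genes lower. Eif2s1 had the lowest limma adjusted p of the members, 0.126, and Eif5a was not among the resolved genes. With a term for the kind of library, chosen after the data were seen, 25 of the 28 members were called lower and 0 higher, 9 of 10 factors and 16 of 18 synthetases, where 9.29% of all genes were called lower and 8.23% higher. The 3 not called were Qars, Eif3e and Sars. In this limma fit Iars had a log2 fold change of -1.17 ± 0.12 (SE, adjusted p = 0.00307) and Eif2s1 one of -1.08 ± 0.11 (adjusted p = 0.00312). Eif4e had -0.84 ± 0.11 (limma adjusted p = 0.00509) and Eef1e1 -1.18 ± 0.17 (limma adjusted p = 0.00741). Without the term the errors of these genes were larger. The SE was then 0.52 for Iars (limma adjusted p = 0.341) and 0.15 for Eif2s1. It was 0.26 for Eif4e (limma adjusted p = 0.222) and 0.23 for Eef1e1 (limma adjusted p = 0.131). The kind of library was read from the myeloid transcripts and not from the labels, and the fit with the term leaves 1 degree of freedom to the residuals.

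After knockdown most of the 45 genes again had lower means. In Rag1-/- cells 44 of the 45 had a lower mean with the Brg1 shRNA than with the control shRNA, all 25 factors and 19 of 20 synthetases, although rescaling to equal totals put Eif4ebp2 at 0.02. The median log2 fold change was -0.32 over the 45, -0.26 for the factors and -0.41 for the synthetases, where the 8684 genes with a mean of at least 100 had a median of -0.03 and 53.8% were lower. The authors' deposited table called 0 of the 45, with an adjusted p of 1 for each, beside 0.0406% of all genes called lower, 0.177% called higher and 0.218% called in all. At an unadjusted p under 0.05 it held 4 of the 45, all lower, beside 1.08% of all genes. Library values cannot be given here, so the spread between the 3 libraries of a group is known only through the authors' p-values.

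Those 4 genes had log2 fold changes of -0.81 to -0.55 in the authors' deposited table. Eif2s1 was lowest of all 45, with means of 946 with the Brg1 shRNA and 1661 with the control shRNA (-0.81, and an adjusted DESeq p of 1). Sars had 1032 with the Brg1 shRNA and 1613 with the control shRNA (-0.64), a larger difference than in the deletion means. Eif5a had 5749 with the Brg1 shRNA and 8537 with the control shRNA (-0.57), and Eif3b 2621 and 3849 (-0.55). A log2 fold change below -0.5 was also listed for Eef1e1 (-0.59), Nars (-0.53), Cars (-0.52) and Iars (-0.50). In the remaining roles, Eif4e was lowest of the cap-binding group (-0.35), Eif4ebp1 had -0.50 and Eif4ebp2 -0.03, Eif2s2 had -0.39, and Eif5 had -0.29 and Eif5b -0.21. Eif3a was highest of the eIF3 subunits (-0.12) and Vars highest of the free synthetases (-0.25). Eef2 again had nearly equal means, 33157 with the Brg1 shRNA and 34713 with the control shRNA (-0.07). Qars was again the single synthetase with a higher mean, 1322 with the Brg1 shRNA and 1244 with the control shRNA (0.09).

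Set side by side, 43 of the 45 genes were lower in both experiments (Eif4ebp2 not so for knockdown at equal totals), where 44.2% of the 8593 genes in both tables with a mean of at least 100 were. Qars was higher in both, though its deletion value was -0.06 without the shallower Brg1-deleted library and -0.13 without the shallower control library, and Eef2 differed in sign. In 41 genes the log2 fold change was lower after deletion than after knockdown, all but Eif4b, Eif3e, Eef2 and Sars. Over the 45 genes the log2 fold changes of both experiments had a Pearson correlation of 0.80, and over the 8593 genes also 0.80. These are descriptions over genes, which share libraries. The tables were normalized separately and the cells differ in genotype, so the difference between the experiments was not tested.

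**Figure D4:**
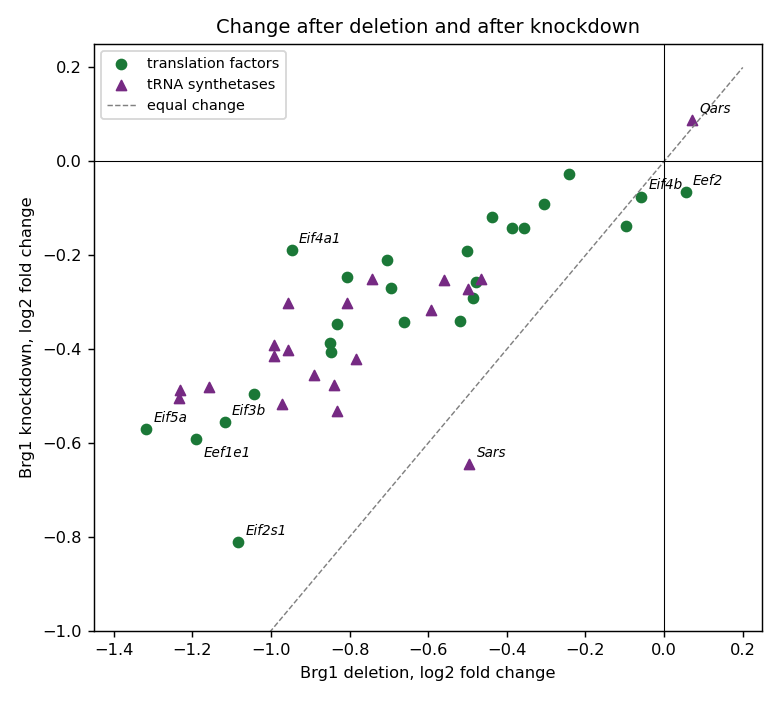
Log2 fold change after knockdown (vertical axis) against that after deletion (horizontal axis) for the 25 factors and 20 synthetases in the authors' tables. Most points lie at negative values on both axes and above the dashed line of equal change, with Sars below it and Qars the single point positive on both.

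Per kb of exon, Eef2 and Eif2b3 stood at the ends of the order in every group. Eef2 was highest in every group, with 13520 normalized reads per kb in Brg1-deleted and 13018 in control cells, and 10703 with the Brg1 shRNA and 11205 with the control shRNA. Eif5a was second in control cells, with 1603 per kb in Brg1-deleted and 3997 in control cells, and 2419 with the Brg1 shRNA and 3592 with the control shRNA. Eef1g had 2186 per kb in Brg1-deleted and 3537 in control cells, and 2672 with the Brg1 shRNA and 3223 with the control shRNA. Its mean thus stood above that of Eif5a in both Brg1-depleted groups and below it in both controls. In Brg1-deleted cells Eif3e (1767 per kb) and Eif4h (1677) also stood above Eif5a, an order that was not tested. Eif2b3 was lowest in every group, with 17.8 per kb in Brg1-deleted and 31.9 in control cells, and 25.6 with the Brg1 shRNA and 33.9 with the control shRNA.

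Other genes of translation were set beside the 45. Of 43 other factors, 34 were lower after deletion (median log2 fold change -0.34), 9 of them at an unadjusted p under 0.05, and 0 were called in either direction in the authors' deposited table. Pabpc4, a poly(A)-binding protein, had the lowest p of these, with means of 1715 in Brg1-deleted and 3433 in control cells (adjusted p = 0.127). After knockdown 34 of the 43 were lower (median -0.18), and the gene with the lowest p, Eif5a2, a paralog of Eif5a, had the higher mean with the Brg1 shRNA, 209, against 142 with the control shRNA (0.55). The 17 mitochondrial synthetases had medians of -0.37 after deletion and -0.17 after knockdown, with 0 called. Nars2, the mitochondrial asparagine enzyme, had the lowest p of these after deletion (-1.21). The 20 listed regulators, of eIF2, of the 4E-BPs and of other factors, were split. After deletion 10 were lower and 10 higher (median 0.03), and after knockdown 11 were lower and 9 higher (median -0.09), with 0 called. Mknk2, a kinase of eIF4E, had 11881 in Brg1-deleted and 5209 in control cells (1.19, adjusted p = 0.102), and Eef2k, the kinase that restrains eEF2, had 2003 with the Brg1 shRNA and 1348 with the control shRNA (0.57). Ddit4, an inhibitor of mTORC1, was picked after its values were seen. It held 2082 and 1019 in the deeper and shallower Brg1-deleted libraries and 380 and 603 in the controls.

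Myc had means of 517 normalized reads in Brg1-deleted and 1938 in control cells, -1.91 in the authors' deposited table (adjusted p = 0.146), and 1242 with the Brg1 shRNA and 1743 with the control shRNA (-0.49, adjusted p of 1). Its reads could not be assigned to libraries. Atf4 had -0.47 after deletion and -0.35 after knockdown, and neither was called. Chac1, an Atf4 target that degrades glutathione, had the lowest p of this list after knockdown, with 106 with the Brg1 shRNA and 219 with the control shRNA (-1.05). Of the 7 genes in this list, 6 were lower after deletion and 1, Ddit3, was higher (0.57). After knockdown all 7 were lower.

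The counting limits which members can be read firmly. Of the 45 genes, 10 overlap a listed gene on the opposite strand and 8 one on the same strand, small nucleolar RNAs among them. The libraries mark strand, but whether the counting used it is not given in the sources used here. A listed pseudogene named after the gene, which could share reads, exists for 9 members, Eif4a1, Eif4g1, Eif4b, Eif2s1, Eif2s2, Eef1d, Eef1g, Kars and Vars. The authors mark 26 of the 45 as confounded, a mark no source used here defines, as they do 47.1% of all genes.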

How the data were processed

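Per the labels' protocols, strands of the polyadenylated RNA libraries were marked with dUTP. The submitters' processing notes name CASAVA, RSEM, DESeq and mm10, with no versions. The deposited mean columns hold a signal, reads divided by size factors and averaged by the authors per group. Per the file headers, the authors also deposited a log2 fold change, a signed linear fold, a p-value and its Benjamini-Hochberg adjusted form. Exon length, deposited by the authors, served for levels per 1000 bases.

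The tables hold no values per sample, so calls are the authors' at an adjusted p under 0.05. Deletion means were split into whole reads of 2 libraries (tolerance 6e-05). A split existed for all 19404 genes, 100% of values, and 18534 (95.5%) had 1. Reads plus 0.5 over the size factor were analysed on the log2 scale with limma 3.58.1 (R 4.3.3) and a mean-variance trend, over genes with a mean of at least 1. limma stands in for a count test. Both steps were tested on simulated data. Python 3.11.15 was used for the rest.

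The members and lists were chosen with earlier results of these data known. Named members were those called, the lowest and highest of each role in each table, and the 2 lowest deletion p per role. Others named were chosen after their values were seen, except Myc, Atf4, Smarca4 and the gene of lowest p in each other list. A gene that this rule names is not reported here.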

Additional observations from a re-analysis of the deposited data

How the results depend on the processing

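Both medians stayed below 0 in each experiment under every alternative run. Eif5a, the single member called, kept its sign, but its alternatives were only small shifts of scale. Its reads were not resolved, so no library could be left out for it. Genes near 0 that were not called did change sign. Eif3e after deletion had 0.04 without the shallower Brg1-deleted library and 0.01 within the C1q-rich libraries. Qars after deletion had -0.06 without that library, -0.13 without the shallower control and -0.01 within the S100a8-rich libraries. Eif4ebp2 after knockdown had 0.02 at equal totals. Leaving out 1 library in turn gave median log2 fold changes after deletion of -1.03 to -0.64 for the resolved factors and of -1.16 to -0.37 for the resolved synthetases. The synthetases had -0.37 without the deeper control library and -1.16 without the shallower control, and -0.60 without the deeper and -1.07 without the shallower Brg1-deleted library. Over resolved factors with all libraries the median was -0.84. Within the S100a8-rich libraries the medians were -0.90 for factors and -1.03 for synthetases, and within the C1q-rich libraries -0.67 for synthetases, both added after the data were seen.

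Of the 45 members, 2 were called after deletion at an adjusted p under 0.1 (419 genes in all). Of the 28 resolved members, limma called 0, with or without any 1 library, and 25 with a term for the kind of library. With all libraries and no such term, limma had 17 members at an unadjusted p under 0.05, beside 16.9% of all genes in either direction. Leaving out 1 library leaves 1 in its group, so counts of unadjusted p are not compared across those fits. The cause of the difference between the fits with and without the term was not tested.

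Over all genes, the deletion table gave 286 calls, 330 when adjusted over listed genes, 392 over those whose mean reached 10, and 162 without the confounded mark. The knockdown table gave 43 calls, 52 at an adjusted p under 0.1 and 28 without the mark. Rescaling to equal totals moved all log2 fold changes by 0.03 after deletion and 0.04 after knockdown. The knockdown medians of factors and of synthetases moved by less than 0.1 under every alternative run, and 0 members were called in each. No paired analysis was possible because the columns carry no replicate numbers, and the limma term for the kind of library is a block read from the data, not from the labels.

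Higher means allow more splits, so resolved members tend to be less abundant, with exceptions such as Eif3e. The most abundant factors, Eif5a and Eef2 among them, therefore have no spread between libraries here. For knockdown, no library can be left out. With 2 libraries per group, the error of each change rests on few values.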

Other observations

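Genes named in this paragraph were picked after their values were seen, from the list of regulators and from that of Myc and Atf4. Pdcd4, an inhibitor of the helicase eIF4A, held 1245 and 1252 normalized reads in the deeper and shallower Brg1-deleted libraries and 644 and 669 in the deeper and shallower controls. The groups did not overlap, and the authors' deposited table gives a log2 fold change of 0.93 (DESeq adjusted p = 0.216). With the Brg1 shRNA its mean was 566, against 425 with the control shRNA, and the authors' deposited table gives 0.41 (adjusted p of 1). Ddit4, the mTORC1 inhibitor, had a mean of 837 with the Brg1 shRNA and 492 with the control shRNA (0.77 in the authors' deposited table, adjusted p of 1). Chac1 held 12.1 and 22.1 in the Brg1-deleted libraries and 82.9 and 18.0 in the controls, so its groups overlapped and its deeper control stood highest, as in most synthetases.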
